A study of Mus musculus with 24 samples.

Results

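Cst8, Nrep, Mmel1 and Ms4a10 are 4 genes whose adrenal signal was low in WT sham male mice and higher after castration or in Kcnk3 null males. They were chosen by their measured male values, so these are given as a description with no test, and only comparisons among female arrays are tested. The genes were found by name among the non-control probes of the array, where Nrep carries its older name D0H4S114. They are 4 of 26230 gene symbols and are read by 6 of 55681 probes. All 6 probes were well above background on all 24 arrays, so no member was lost to the filter on dim probes.

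The study hybridized total RNA of adrenal glands from C57BL/6 mice to 24 one-colour arrays, 3 in each of 8 groups. Kcnk3 encodes TASK1, a background potassium channel. The male groups were WT sham, WT castrated, Kcnk3 null sham and Kcnk3 null castrated, and the female groups were WT sham, WT given testosterone by injection, Kcnk3 null sham and Kcnk3 null given testosterone. The labels give neither the age of the mice, nor the testosterone dose, nor whether an array held 1 animal or a pool. The p-values measure the spread between these arrays.

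Androgens are steroid hormones, made mainly by the testis, that raise the transcription of some genes and lower that of others. The X-zone is an inner layer of the mouse adrenal cortex that persists in virgin females and regresses in males at puberty under androgens. Cst8 encodes a cystatin, a family named for its protease inhibitors, and is best known from the epididymis and testis. Nrep encodes a small intracellular protein, also called P311, that has been tied to production of TGF-beta. Mmel1 encodes a zinc metallopeptidase of the neprilysin family, which cleaves peptides, and Ms4a10 encodes a membrane-spanning protein of the MS4A family.

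The probes define what was measured, and their first 30 of 60 bases are shown for Cst8, Mmel1 and Ms4a10, with positions in mm9. The Cst8 probe lies on the plus strand at chr2:148631261-148631320. The Mmel1 probe used for the tests lies on the plus strand at chr4:154269578-154269637, and the other at chr4:154269571-154269630, so they share 53 bases and are not separate evidence. The Ms4a10 probe used lies on the minus strand at chr19:11036787-11036846, and the other at chr19:11042613-11042672, which do not overlap. Sequence of Nrep is not shown.
Cst8 probe: cttctgggtctgcttttctctgtaataaag
Mmel1 probe used: tagtgtgtggctaaatgttctcgagcttca
Mmel1 other probe: ctctccatagtgtgtggctaaatgttctcg
Ms4a10 probe used: tggctggactccggtgatgacacaggcgtg
Ms4a10 other probe: agtcaagaatctgcacctggtggtgttgaa

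Because the members moved together, the RefSeq promoter windows of 3 of them are shown, in GRCm38.p6, from 250 bases before to 50 bases after the start site. Capitals mark a motif found on either strand. The motifs searched were the steroid hormone half-site AGAACA, the full palindromic element that holds AGAACA and, 3 bases on, TGTTCT, the SF-1 site AAGGTCA, the GATA site AGATAA and the TATA box TATAAA. SF-1 is the nuclear receptor that drives steroid-producing cells. The Cst8 window, chr2:148798589-148798888 on the plus strand, held AAGGTCA starting at position -47 from the start site. The Mmel1 window, chr4:154869335-154869634 on the plus strand, held AGAACA at -120. The Ms4a10 window, chr19:10974651-10974950 on the minus strand, held TGTTCT, the reverse complement of AGAACA, at -6.
Cst8 promoter: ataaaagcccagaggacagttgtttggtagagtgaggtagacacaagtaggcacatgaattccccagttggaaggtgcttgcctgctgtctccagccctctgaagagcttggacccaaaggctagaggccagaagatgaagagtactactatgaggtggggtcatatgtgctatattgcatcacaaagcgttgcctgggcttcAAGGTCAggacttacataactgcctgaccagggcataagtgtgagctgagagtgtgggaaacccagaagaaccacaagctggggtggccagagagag
Mmel1 promoter: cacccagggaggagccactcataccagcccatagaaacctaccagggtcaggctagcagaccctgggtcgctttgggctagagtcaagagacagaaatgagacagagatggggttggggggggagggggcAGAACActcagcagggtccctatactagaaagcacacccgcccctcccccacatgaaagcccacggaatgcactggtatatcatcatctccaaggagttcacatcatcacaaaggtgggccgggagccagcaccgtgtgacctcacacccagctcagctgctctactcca
Ms4a10 promoter: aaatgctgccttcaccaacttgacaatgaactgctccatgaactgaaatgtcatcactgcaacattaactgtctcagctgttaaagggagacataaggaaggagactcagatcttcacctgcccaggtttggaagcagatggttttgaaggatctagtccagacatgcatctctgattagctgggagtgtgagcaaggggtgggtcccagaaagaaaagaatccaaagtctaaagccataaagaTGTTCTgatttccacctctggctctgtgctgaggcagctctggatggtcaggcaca
Among 32851 RefSeq promoter windows, 18.97% held AGAACA on either strand, 4.72% held AAGGTCA, 11.18% held AGATAA, 13.62% held TATAAA and 0.009% held the full element. The half-site is therefore common in windows of this length, and the matches are a description of the letters only. The full element, AGATAA and TATAAA were not among the letters of these 3 windows.

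Levels are given as log2 of the spot signal minus log2 of the array's 75th percentile, so a level of 0 is the array's 75th percentile. Levels of different probes cannot be set against each other. Differences carry limma's standard error (SE) and, where given, its 95% interval, and adjusted p is limma's p after Benjamini-Hochberg adjustment over 31077 features.

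Before the members, the labels were checked. Star, Cyp11a1 and Cyp21a1, which mark steroid-producing cortex, were well above background on all 24 arrays, as were the medullary markers Th and Chga. Kcnk3 read 5.63% to 69% of the WT sham mean of the same sex in null arrays and 66.5% to 118% in WT arrays, so the ranges overlapped. Whether its probe lies in the deleted part is not given in the sources used here. On 9 arrays, transcripts of the opposite sex reached at least 10% of their reference level: the Y-linked genes Ddx3y and Eif2s3y, read against WT sham males, in female WT sham replicates 2 and 3 and all 3 female WT testosterone arrays (19.2% to 45.5%), and Xist, read against null sham females, in male null sham replicates 1 and 2 and male null castrated replicates 1 and 2 (17.4% to 58%). Male WT sham replicate 3 and female null testosterone replicate 1 carried albumin, a liver transcript, at levels of 7.38 and 8.29. Both arrays of slide 4, female WT sham replicate 3 and female WT testosterone replicate 3, had an RNA integrity number of 3. In null females this number was 8, 7 and 7 on the sham arrays and 7, 6 and 5 on the testosterone arrays.

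Testosterone lowered all 4 genes in female adrenals when its effect was averaged over WT and null mice. The fall was 3.82-fold for Cst8, 4.77-fold for Nrep, 2.49-fold for Mmel1 and 3.07-fold for Ms4a10. All 4 of 4 members passed the threshold as lower, against 0.354% of all features tested. By genotype the calls were fewer. In WT females 1 of 4 members, Mmel1, was called, and in null females 1 of 4, Nrep. Signal of the X-zone was also lower on the testosterone arrays, as given further on. In whole glands, fewer cells of a type and less RNA per cell cannot be told apart.

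**Figure D1:**
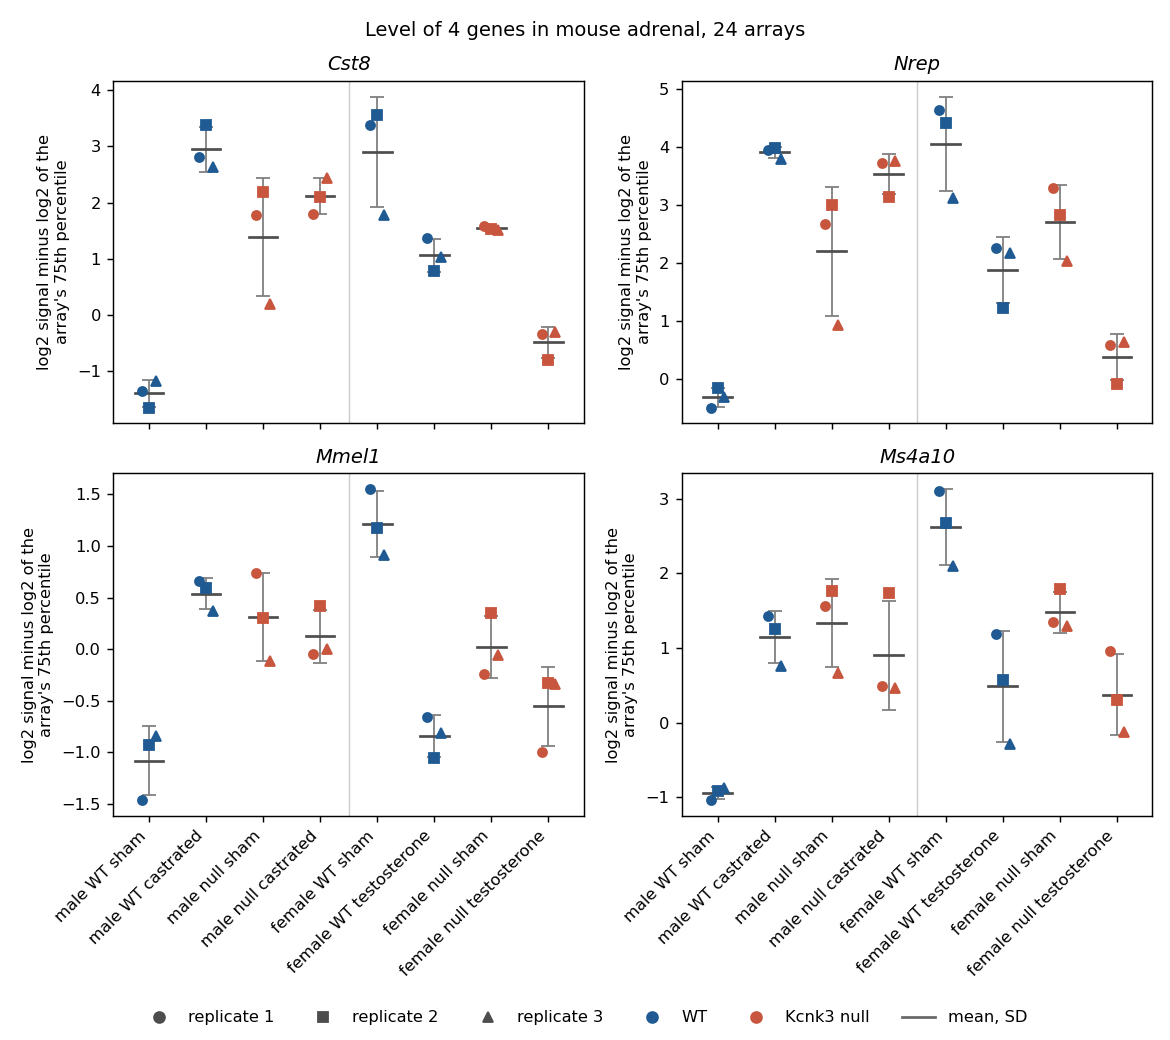
Level of each gene on every array (log2 signal minus log2 of the array's 75th percentile) in the 8 groups of 3 arrays, with points for arrays and bars for the mean and SD. Male WT sham has the lowest group mean in all 4 panels, and testosterone arrays lie below the sham arrays of the same genotype in every female panel.

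Cst8 read 3.39, 3.56 and 1.78 on the female WT sham arrays and 1.37, 0.79 and 1.03 on the WT testosterone arrays. In null females it read 1.58, 1.53 and 1.52 after sham treatment and -0.34, -0.80 and -0.31 after testosterone. Sham and testosterone arrays did not overlap in either genotype, as they also did not for the other 3 members by the probes tested. Of all features, 4.19% were separate and lower in WT females and 5.98% in null females. Among the Cst8 values, the third WT sham array lay well below the others. That array is 1 of the pair with the low RNA integrity number and held Y-linked signal at 45.5%. The part of either in its value was not tested. The averaged difference was -1.94 ± 0.31 (SE, 6 arrays against 6), with limma's adjusted p = 0.00974. Within WT females the difference was -1.84 ± 0.44 (95% interval -2.77 to -0.92, limma's adjusted p = 0.151). Within null females it was -2.03 ± 0.44 (-2.95 to -1.10, limma's adjusted p = 0.0792). Neither of these passed the threshold. Without female WT sham replicate 3 the WT difference was -2.41 and passed it (limma's adjusted p = 0.0242).

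Nrep, whose probe lies at chr18:33597298-33597357 on the minus strand (mm9), read 4.63, 4.40 and 3.11 in female WT sham and 2.25, 1.21 and 2.17 in WT testosterone. Its null values were 3.29, 2.83 and 2.03 in sham and 0.58, -0.08 and 0.63 in testosterone. The groups were again separate in both genotypes, with the third sham array lowest in each. Averaged over genotypes, Nrep differed by -2.25 ± 0.33 (limma's adjusted p = 0.00639). The WT difference was -2.17 ± 0.47 (-3.16 to -1.18, limma's adjusted p = 0.107). The null difference of -2.34 ± 0.47 passed narrowly (limma's adjusted p = 0.0496), against 0.18% of features called lower there. That call was lost without null sham replicate 1 (adjusted p = 0.309) or 2 (0.182) and without null testosterone replicate 1 (0.087), 2 (0.17) or 3 (0.149) in limma. In WT females the call was reached without sham replicate 3, at -2.64 (limma's adjusted p = 0.0347).

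Mmel1 read 1.55, 1.17 and 0.92 in female WT sham and -0.66, -1.06 and -0.81 in WT testosterone. The WT groups were separated by more than the whole range within either. This was a difference of -2.06 ± 0.25, or 4.16-fold (limma's adjusted p = 0.00266), where 0.045% of all features were called lower. In null females Mmel1 read -0.24, 0.35 and -0.06 in sham and -1.0, -0.33 and -0.34 in testosterone. The null difference was -0.57 ± 0.25 (-1.10 to -0.04, limma's adjusted p = 0.746). Averaged, it was -1.31 ± 0.18 (limma's adjusted p = 0.00318).

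Ms4a10 read 3.10, 2.67 and 2.09 in female WT sham and 1.18, 0.57 and -0.29 in WT testosterone. In null females it read 1.35, 1.79 and 1.29 in sham and 0.95, 0.30 and -0.13 in testosterone. The groups did not overlap in either genotype by this probe. The WT difference of -2.14 ± 0.41 lay just above the threshold (limma's adjusted p = 0.0537), and it passed without WT sham replicate 3 or WT testosterone replicate 1, at -2.40 and -2.49 (limma's adjusted p = 0.0347 and 0.032). The null difference was -1.10 ± 0.41 (-1.96 to -0.24, limma's adjusted p = 0.578). The averaged difference was -1.62 ± 0.29 (limma's adjusted p = 0.0165). It missed the threshold narrowly without WT sham replicate 2 (0.0535), null sham replicate 2 (0.0546) or null testosterone replicate 3 (0.0524) in limma.

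For Mmel1 and Ms4a10 the testosterone difference had a larger size in WT than in null females, and the test of that gap between genotypes was not passed. The interaction was 1.48 ± 0.36 for Mmel1 (limma's adjusted p = 0.229) and 1.04 ± 0.58 for Ms4a10 (-0.18 to 2.25, limma's adjusted p = 1). For Cst8 it was -0.18 ± 0.62 and for Nrep -0.16 ± 0.67 (limma's adjusted p = 1 for each). None of the 4 members was called, and 0.0965% of all features were. At an unadjusted limma p under 0.05, Mmel1 was the only member to pass (0.000575), as did 3.52% of all features.

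**Figure D2:**
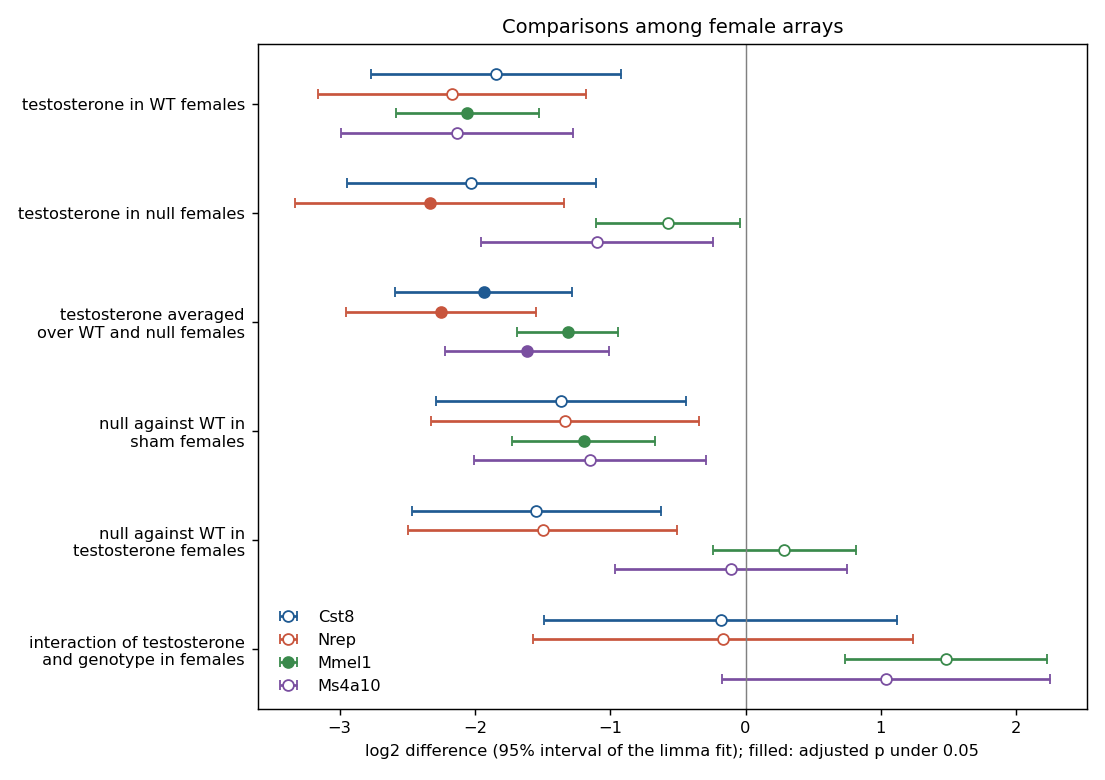
Log2 differences of the 4 genes in 6 comparisons among female arrays, with 95% intervals of the limma fit; filled points have an adjusted p under 0.05. All 4 averaged testosterone differences are filled and negative, from -1.31 to -2.25.

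Each testosterone comparison was also read within slides. In WT females the within-slide differences on slides 1, 2 and 4 were -2.01, -2.76 and -0.75 for Cst8, -2.38, -3.19 and -0.94 for Nrep, -2.21, -2.23 and -1.73 for Mmel1, and -1.92, -2.10 and -2.39 for Ms4a10. In null females those on slides 1, 2 and 3 were -1.92, -2.33 and -1.83 for Cst8, -2.71, -2.91 and -1.39 for Nrep, -0.76, -0.68 and -0.28 for Mmel1, and -0.39, -1.49 and -1.42 for Ms4a10. Every within-slide difference was negative. This sign follows from the groups not overlapping, as given above, and is no further test. With slide as a block, limma also called Ms4a10 in WT females (adjusted p = 0.0106) and Cst8 in null females (0.0492).

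All 3 WT testosterone arrays held Y-linked signal, so the WT and averaged comparisons could not be made without the 9 arrays named above. The null female comparison uses none of them. Leaving them out can change only its pooled spread and the adjustment, so it is no check of opposite-sex signal there. With those 9 arrays left out of the fit, Cst8 and Nrep passed in null females at unchanged differences of -2.03 and -2.34 (limma's adjusted p = 0.0139 and 0.026). The part of the opposite-sex signal in the WT differences was not tested.

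Among sham females the mean of each of the 4 genes was lower in Kcnk3 null than in WT mice, and 1 of 4, Mmel1, passed the threshold. Mmel1 fell by 1.197 ± 0.25 on the log2 scale (limma's adjusted p = 0.0388), where 0.135% of features were called lower. The differences of the others were -1.36 ± 0.44 for Cst8 (-2.29 to -0.44), -1.34 ± 0.47 for Nrep (-2.33 to -0.34) and -1.15 ± 0.41 for Ms4a10 (-2.0 to -0.29), with limma's adjusted p from 0.229 to 0.299. Null and WT sham arrays did not overlap for Cst8, Mmel1 and Ms4a10, as for 6.52% of all features, and overlapped for Nrep. The Mmel1 call was lost with slide as a block (-1.24, limma's adjusted p = 0.0547). It was also lost without WT sham replicate 1 (0.141) or 2 (0.0819), and without null sham replicate 1 (0.188) or 3 (0.13). Within slides 1 and 2, which hold both groups, the Mmel1 differences were -1.80 and -0.82. These comparisons share the WT sham arrays with the testosterone comparison in WT females, so the sets of values are not independent. WT sham replicates 2 and 3 held Y-linked signal (25.4% and 45.5%), where the null sham arrays read 0.114% to 0.18%. Replicate 3 also had an RNA integrity number of 3. The part of either in the null differences was not tested. The Mmel1 call was also lost without slide 4. Without the 9 arrays, which leaves replicate 1 as the only WT sham female, the Mmel1 difference was -1.54.

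Under testosterone, null and WT females differed by -1.55 ± 0.44 for Cst8 (-2.47 to -0.62, limma's adjusted p = 0.26) and -1.50 ± 0.47 for Nrep (-2.49 to -0.51, 0.323). The difference was 0.29 ± 0.25 for Mmel1 (-0.24 to 0.82, 0.927) and -0.11 ± 0.41 for Ms4a10 (-0.97 to 0.75, 0.999). None was called, Cst8 and Nrep had an unadjusted limma p under 0.05 (0.00244 and 0.00526) like 8.01% of all features, and 0.0354% of features were called in either direction. The null arrays lay below the WT arrays for Cst8 and Nrep, as for 5.38% of all features, and overlapped for Mmel1 and Ms4a10. All 3 WT testosterone arrays held Y-linked signal (19.2% to 36%), where the null ones read 0.135% to 0.18%. Genotype and this signal cannot be told apart here.

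In males the same 4 genes were chosen for the values that follow. Cst8 read -1.35, -1.64 and -1.17 in WT sham and 2.82, 3.39 and 2.63 in WT castrated, a 20.2-fold difference of means. Nrep read -0.49, -0.16 and -0.31 in WT sham and 3.94, 3.98 and 3.79 in WT castrated, an 18.7-fold difference. Mmel1 read -1.46, -0.93 and -0.85 against 0.66, 0.59 and 0.37, and Ms4a10 read -1.04, -0.92 and -0.88 against 1.43, 1.25 and 0.76. These were 3.08-fold and 4.26-fold differences. No WT sham array reached the lowest castrated array for any member. Across the array 7.99% of all features were separated in this direction, which is printed as background only. Within slides 1 to 3 the castration difference ran from 3.80 to 5.03 for Cst8, 4.099 to 4.435 for Nrep, 1.21 to 2.12 for Mmel1 and 1.64 to 2.47 for Ms4a10.

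Null sham males read 1.78, 2.20 and 0.20 for Cst8 and 2.67, 3.00 and 0.93 for Nrep. They read 0.74, 0.30 and -0.11 for Mmel1 and 1.56, 1.77 and 0.67 for Ms4a10. The means were 6.87-fold, 5.74-fold, 2.63-fold and 4.84-fold above WT sham males. The third array was the lowest for each gene, and even it lay above every WT sham male array. Without it the log2 differences of Cst8 and Nrep were 3.38 and 3.16. Features separated in this direction made up 6.86% of all. Without the 9 arrays with opposite-sex signal, which leaves replicate 3 as the only null sham male, the log2 differences were 1.59 for Cst8, 1.25 for Nrep, 0.97 for Mmel1 and 1.61 for Ms4a10, from 2.78, 2.52, 1.39 and 2.28.

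Castrated null males read 1.79, 2.11 and 2.44 for Cst8, 3.73, 3.14 and 3.75 for Nrep, -0.05, 0.42 and 0.00 for Mmel1 and 0.50, 1.74 and 0.46 for Ms4a10. Against null sham males the mean log2 differences were 0.72, 1.34, -0.19 and -0.43. Only Nrep had separate groups, as did 11.4% of all features in that direction. Without null sham replicate 3 the first pair of differences was 0.13 for Cst8 and 0.70 for Nrep, and without the 9 arrays, on 1 array against 1, it was 2.24 and 2.82. Against castrated WT males the castrated null males differed by -0.83 for Cst8, -0.36 for Nrep, -0.42 for Mmel1 and -0.25 for Ms4a10. Cst8 and Nrep were separate there, like 8.24% of all features.

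Over all 8 groups, male WT sham was the lowest group for each of the 6 probes. For Nrep, Mmel1 and Ms4a10 female WT sham was the highest. For Cst8 castrated WT males (2.95 ± 0.39, SD, n = 3) and sham WT females (2.91 ± 0.98) led, followed by castrated null males at 2.11 ± 0.32, and each of these overlapped the next. Null sham females at 1.55 ± 0.03 lay below all of these. Null sham males at 1.39 ± 1.05 spread over the widest range and overlapped groups on both sides, and WT testosterone females followed at 1.06 ± 0.29. Null testosterone females at -0.48 ± 0.27 and WT sham males at -1.39 ± 0.24 stood apart from their neighbours.

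Nrep followed the order of female WT sham (4.05 ± 0.82, SD, n = 3), castrated WT males (3.90 ± 0.10), castrated null males (3.54 ± 0.34), null sham females (2.71 ± 0.64), null sham males (2.20 ± 1.11), WT testosterone females (1.88 ± 0.58), null testosterone females (0.38 ± 0.40) and WT sham males (-0.32 ± 0.17). Its neighbours were separate between castrated WT and castrated null males and at the 2 lowest steps, and overlapped elsewhere. For Mmel1, female WT sham (1.21 ± 0.32) stood above all other groups. Castrated WT males, null sham males, castrated null males and null sham females ran from 0.54 to 0.02 with overlap at each step. Below a gap came null testosterone females (-0.56 ± 0.38), WT testosterone females (-0.84 ± 0.20) and WT sham males (-1.08 ± 0.33), which overlapped in turn. For Ms4a10 female WT sham (2.62 ± 0.51) and male WT sham (-0.94 ± 0.08) stood apart at the ends, and the 6 groups between them, from 1.48 to 0.38, overlapped step by step.

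The sexes were also set side by side. Sham WT females exceeded sham WT males 19.7-fold for Cst8, 20.6-fold for Nrep, 4.91-fold for Mmel1 and 11.8-fold for Ms4a10, and this too is a description, since the low male value chose the genes. In sham null mice the sexes overlapped for all 4, with log2 differences of 0.15, 0.51, -0.30 and 0.14. Null sham male replicates 1 and 2 carried Xist at 19.5% and 18.3% of its reference level, and replicate 3 read 6.08%. Replicate 3 lay below every null sham female array for Cst8 (0.20, lowest female 1.52), Nrep (0.93, 2.03) and Ms4a10 (0.67, 1.29). For Mmel1 it lay within the female range. The part of the Xist signal in the overlap was not tested. WT females given testosterone still exceeded WT sham males by 2.45 for Cst8, 2.20 for Nrep and 1.43 for Ms4a10 with no overlap. For Mmel1 they differed by 0.24 and overlapped.

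The second probes of Mmel1 and Ms4a10 were read in the same way. The Mmel1 probes correlated at r = 0.991 over the 24 arrays. The Ms4a10 probes, which do not overlap in sequence, correlated at r = 0.973. With every probe fitted, the second Mmel1 probe fell by 1.96 with testosterone in WT females (limma's adjusted p = 0.00296) and by 1.26 on average (0.00394). The second Ms4a10 probe fell by 1.52 on average (limma's adjusted p = 0.0219). In null females its sham and testosterone arrays overlapped, at a difference of -1.06.

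Across the 24 arrays, Cst8 and Nrep had a Pearson r of 0.975, and the other 5 pairs had r from 0.766 to 0.845. Over deviations from group means it was 0.815 for Cst8 and Nrep, and 0.347 to 0.517 for the others. These are descriptions: the points share arrays, slides and the groups that chose the genes.

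The X-zone gene Akr1c18, which encodes 20-alpha-hydroxysteroid dehydrogenase, was lower in WT sham males than in WT castrated males and WT sham females. So were the members. Akr1c18 was also far lower in null than in WT testosterone females. There the members differed by -1.55 for Cst8, -1.50 for Nrep, 0.29 for Mmel1 and -0.11 for Ms4a10. The Akr1c18 level was -3.27, -3.97 and -3.56 in WT sham males and 8.33, 8.35 and 7.82 in WT castrated males. In females it was 8.53, 8.37 and 7.05 in WT sham, 6.57, 5.83 and 6.75 in WT testosterone, 6.69, 6.02 and 2.85 in null sham, and -3.78, -3.23 and -3.16 in null testosterone. The summed linear level of the 3 X-zone markers Akr1c18, Pik3c2g and Cyp2f2, as multiples of the array's 75th percentile, ran from 171 to 511.7 in WT sham females and 70.25 to 123.2 in WT testosterone females. It ran from 30.22 to 145.4 in null sham females and 2.776 to 21.67 in null testosterone females. In WT sham males it was 2.856 to 13.85, in WT castrated males 262.2 to 374.8, in null sham males 6.862 to 182.7 and in null castrated males 200.6 to 273.9. Akr1c18 and Cyp2f2 were well above background on all 24 arrays, and Pik3c2g was on 17: it was not on any WT sham male or null testosterone female array, nor on null sham male replicate 3. The part of X-zone tissue in the differences was not tested.

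**Figure D3:**
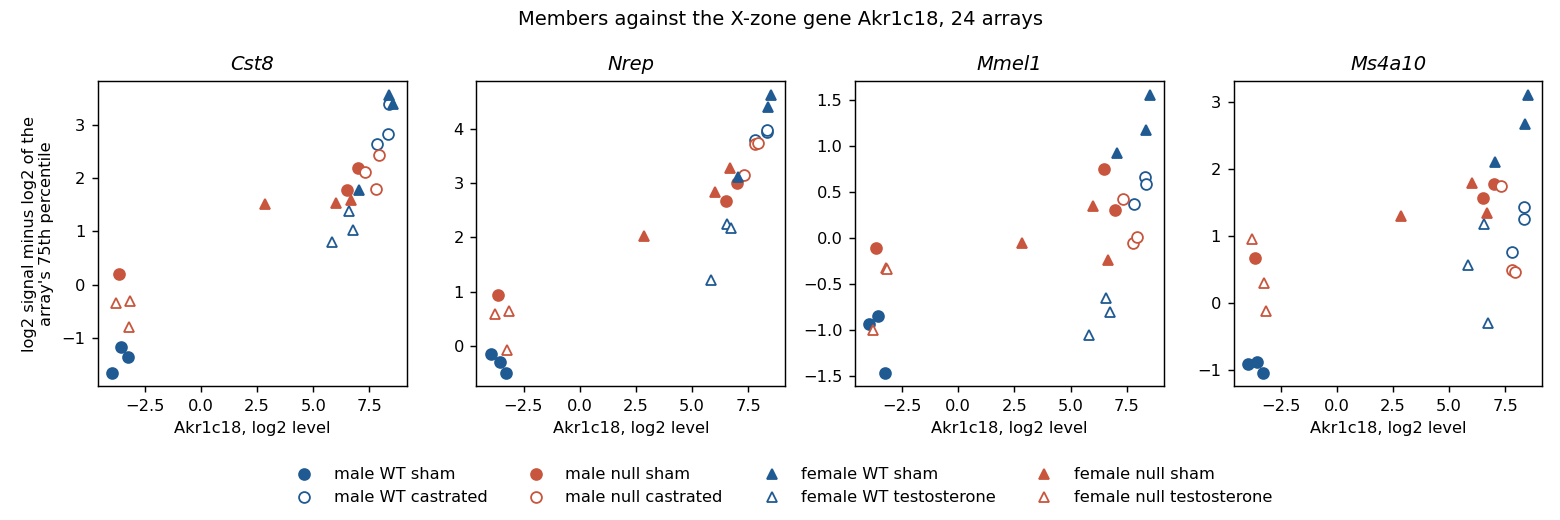
Level of each gene against the level of Akr1c18 on the 24 arrays, both as log2 signal minus log2 of the array's 75th percentile; colour gives genotype, shape gives sex and filling gives sham. The null sham male array with Akr1c18 at -3.65 lies above the 3 WT sham male arrays in all 4 panels. It carries Xist at 6.08% of its reference level, and the other null sham male arrays carry it at 19.5% and 18.3%.

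Among null sham males, Xist read 19.5% and 18.3% of its reference level on replicates 1 and 2, and 6.08% on replicate 3. Replicates 1 and 2 are among the arrays named above for opposite-sex signal, and replicate 3 is not. Replicate 3 also differed from them in Akr1c18, and the part of the Xist signal in this was not tested. Akr1c18 was at -3.65 there and at 6.51 and 7.00 on the other null sham arrays, while Cst8 at 0.20, Nrep at 0.93, Mmel1 at -0.11 and Ms4a10 at 0.67 stayed above all WT sham males. In WT testosterone females Akr1c18 lay between 5.83 and 6.75. There Cst8, Nrep and Ms4a10 were above all WT sham males, and Mmel1 was within the male range (-1.46 to -0.85) on 1 of the 3 arrays.

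The genes whose 24-array profiles were most like the members were taken from 15924 named features by Pearson r. Cst8 and Nrep had the same leading pair, Acpp (r = 0.947 and 0.961), an acid phosphatase known from the prostate, and Oxtr (r = 0.941 and 0.959), the oxytocin receptor. Nudt11, Fndc5 and Gadl1 followed for Cst8 (r = 0.929, 0.927 and 0.925). For Nrep they were Fndc5, Tchhl1 and the X-zone marker Pik3c2g (r = 0.949, 0.942 and 0.94). Gadl1 and Tchhl1 were dim, with means of -7.43 and -7.23 in WT sham males. Pik3c2g, which was not well above background on those arrays, had a mean of -7.10 there. Mmel1 was most like Prxl2b (r = 0.913), then Gadl1, Rcn1, Gstk1 and Appl2 down to r = 0.845. Ms4a10 was most like Top1mt (r = 0.906), a mitochondrial topoisomerase, then Frzb, a secreted Wnt antagonist (r = 0.893), Plpp2, Gabrg3 and Prxl2b.

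Against the mean profile of the members the first 10 were Prxl2b (r = 0.948), Oxtr (0.946), Rcn1 (0.944), Gadl1, Frzb, Top1mt, Vnn3, Tchhl1, Gstk1 and Ankrd35 (0.901). Oxtr had its lowest mean in WT sham males, 0.82 ± 0.08 (SD, n = 3), and read 4.67 ± 1.05 in WT sham females, 2.62 ± 0.61 in WT testosterone females, 3.86 ± 0.79 in null sham females and 1.60 ± 0.91 in null testosterone females. Prxl2b had a narrower span, from 4.14 ± 0.10 in WT sham males to 5.98 ± 0.54 in WT sham females.

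**Figure D4:**
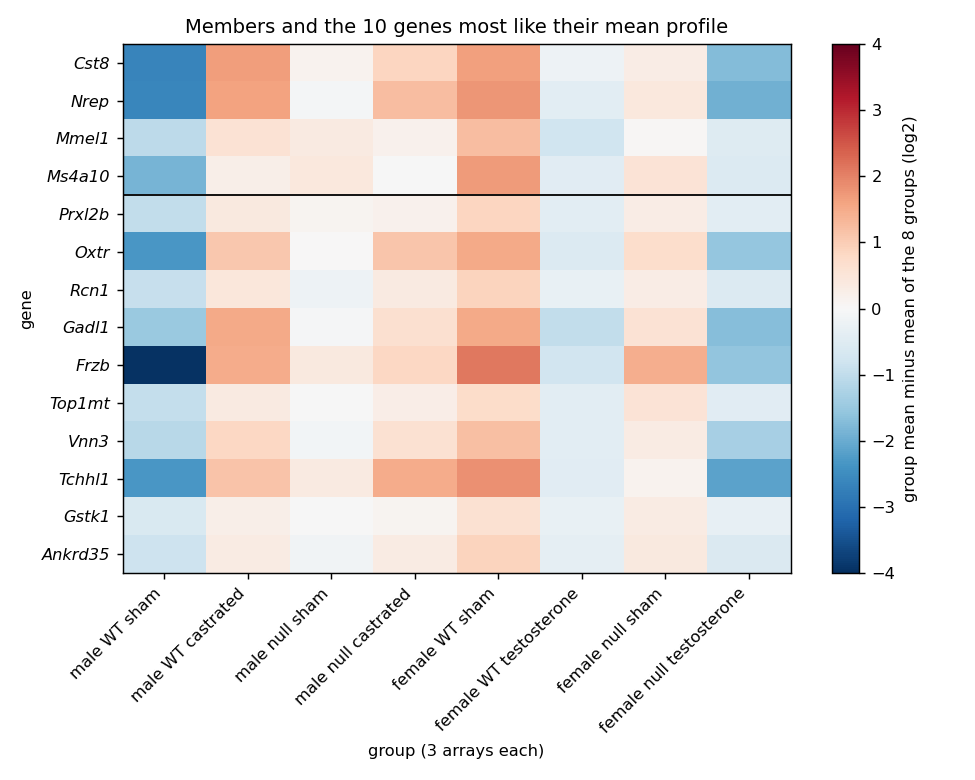
Group means of the 4 genes and of the 10 genes most like their mean profile, each minus that gene's mean over the 8 groups (log2), with 3 arrays per group. Male WT sham is below the gene's mean in every row, and female WT sham is above it. The members were chosen for low WT sham male signal and the other rows for likeness to them, so the shared pattern is no test.

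Relatives of the members were counted from lists of their families. In each female comparison limma called 11 to 151 of 31077 features, so 0 called says little about lists this small. In each, 3.52% to 9.62% of all features had an unadjusted limma p under 0.05. The share of all features with such a p in at least 1 comparison was not computed, so those counts have no background. Of 19 other cystatin genes listed, 13 were measured and limma called 0 in any of the 6 female comparisons, while 3 had an unadjusted p under 0.05 in at least 1 of them. With averaged testosterone their median difference was 0.21, against -0.03 over all features. Cst3, the widely expressed cystatin C, differed by -0.06 ± 0.09, and Cstb by 0.00 ± 0.12. Of the neprilysin family, 4 of 6 were measured and limma called 0 in females (median 0.31, 3 with an unadjusted p under 0.05 in at least 1 comparison). Neprilysin itself, Mme, differed by 0.16 ± 0.22. Of the MS4A family, 14 of 19 were measured and limma called 0 in females (median -0.24, 6 with such an unadjusted p), with Tmem176b at -0.26 ± 0.11.

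Of 22 TGF-beta ligands, receptors, Smads and latency proteins, the pathway tied to Nrep, all 22 were measured and limma called 0 in any of the 10 comparisons, where 13 had an unadjusted p under 0.05 in at least 1. Their median with averaged testosterone was -0.10. In single comparisons among the 10, limma called 11 to 312 of 31077 features, and 3.52% to 9.65% had an unadjusted p under 0.05. The share of all features with such a p in at least 1 was not computed. Of 22 genes of androgen action and metabolism, 20 were measured. Srd5a2, a steroid 5-alpha-reductase that makes dihydrotestosterone, rose by 1.85 ± 0.40 with averaged testosterone (limma's adjusted p = 0.0463), where 0.0869% of features were called higher. In null males castration lowered Srd5a2 by 2.45 ± 0.56 (limma's adjusted p = 0.0404), Cst6 by 1.31 ± 0.30 (0.0374) and Ece2, an endothelin-converting enzyme, by 0.90 ± 0.17 (0.0114), where 0.579% of features were called lower. No gene of these lists was called by limma with castration in WT males, between null and WT sham males or between null and WT castrated males, where 0.599%, 0.0837% and 0.698% of all features were.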

How the data were processed

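Adrenal RNA of 24 mouse samples was read on one-colour arrays. Per the file headers, spots were quantified with Feature Extraction 10.7.3.1, and the deposited intensity is a processed signal after background subtraction, with probe positions in mm9. The authors' deposited value table holds log2 values, with column medians from 6.33 to 6.34; its processing is not given in the sources used here, and it served as an alternative.

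Here log2 processed signal minus each array's 75th percentile was used. Flagged outliers (160 to 283 spots on each array) were dropped, then replicate spots averaged per probe. Signal limits precision: 57.0% to 64.7% of spots were well above background. Probes well above background on at least 3 of 24 arrays were kept (36832). The probe with the highest mean stood for a gene, giving 31077 features. Group means were fitted with limma 3.58.1 in R 4.3.3 (lmFit, eBayes, 16 residual degrees of freedom), with Benjamini-Hochberg adjustment over all features and a threshold of 0.05. Figures were drawn in matplotlib 3.10.9 under Python 3.11.15.

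All members and probes are named. A list gene is not reported here by name and stays in the counts. Like genes are the 5 with the highest r per member and 10 for their mean. From the lists, called genes are named, and otherwise at most 3 with the highest mean. Members, lists and the sets of 9 and 2 arrays left out were chosen with earlier results of these data known. Alternatives were normexp with quantile normalization, quantile normalization, the deposited table, other filters, every probe, slide and replicate blocks, RNA integrity number, array weights and omission of arrays. Arrays sharing a replicate number were not treated as pairs in the main fit. Their deviations correlated by 0.227 on average, from -0.352 to 0.686. On simulated data for testosterone in null females (30853 features), the fit recovered 41 of 100 changes of -1 and 66 of 100 of -2.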

Additional observations from a re-analysis of the deposited data

How the results depend on the processing

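No called difference reversed, and 5 uncalled or described ones crossed 0 under some alternatives: the interaction of Cst8 (-0.51 to 0.38) and Nrep (-0.51 to 0.45), null against WT testosterone females for Ms4a10 (-0.51 to 0.24), castration in null males for Mmel1 (-0.40 to 0.12) and null against WT castrated males for Ms4a10 (-0.69 to 0.02). The averaged testosterone falls of Cst8, Nrep and Mmel1 passed the threshold under all 24 alternatives. Testosterone in WT females: Ms4a10 passed with normexp and quantile normalization (-2.13), quantile normalization (-2.14), the deposited table (-2.14), the filter on all arrays (-2.14), slide as a block (-2.14), RNA integrity number (-2.07) and array weights (-1.86). Array weights also carried past it Cst8 (-2.30) and Nrep (-2.50) in WT females, Cst8 in null females (-2.25), the sham null differences of Cst8 (-1.87) and Nrep (-1.40), the testosterone null difference of Cst8 (-1.82) and the Mmel1 interaction (1.55). Cst8 in null females passed with slide as a block, without slide 4 and without the 9 arrays (-2.03 each). The null difference of Mmel1 in sham females missed it with the deposited table (-0.98), no filter (-1.20), slide as a block (-1.24), without slide 4 (-1.35) and without the 9 arrays (-1.54). Nrep in null females missed it with no filter and every probe (-2.34 each), RNA integrity number (-2.20) and without the albumin arrays (-2.44). The cause was not tested.

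With the replicate block, Ms4a10 in WT females passed (-2.14, limma's adjusted p = 0.0144), and no other member's call changed. Without the 9 arrays the described male differences moved: castration in null males to 2.24 (Cst8) and 2.82 (Nrep), and null against WT sham males to 1.59 (Cst8), 1.25 (Nrep), 0.97 (Mmel1) and 1.61 (Ms4a10). WT testosterone, averaged and interaction values could not be fitted there.

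With single arrays left out, testosterone in WT females ranged from -2.41 to -1.52 for Cst8, -2.64 to -1.84 for Nrep and -2.49 to -1.75 for Ms4a10. Nrep in null females ranged from -2.68 to -2.05, Mmel1 in null against WT sham females from -1.36 to -1.03 and averaged Ms4a10 from -1.79 to -1.42. Where an arm kept 1 array, its spread was taken to be that of the other groups.

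Counts of called features ranged widely over settings other than single-array omission: 7 to 502 for testosterone in WT females (main setting 23), 34 to 463 in null females (65), 72 to 808 averaged (137), 63 to 1304 for null sham females (151), 4 to 348 for null testosterone females (11) and 21 to 176 for the interaction (30). Array weights gave each highest count.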
